A study of Mus musculus with 12 samples.

Results

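The genes described here are 10 immediate early transcription factors and nuclear regulators: the AP-1 genes Fos, Fosb, Jun, Junb and Jund, the zinc-finger genes Egr1 and Klf6, the nuclear receptor gene Nr4a1, the ATF family gene Atf3 and the nuclear protein gene Ier2. They were chosen by gene symbol, with earlier results of these data known, and were 10 of 19494 named genes on the arrays. Each was measured by 1 probe set, and all 10 lay above the filter on low values.

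Blood stem cells and progenitors were taken from marrow of 6 mice that received no treatment, with 1 array for each population of each mouse. The 4 groups of 3 arrays were HSC from KO mice, HSC from WT mice, MPP from KO mice and MPP from WT mice. HSC (haematopoietic stem cells) were CD48- CD150+ and MPP (multipotent progenitors) CD48+ CD150-, both inside the LSK gate, the fraction without lineage markers and with Sca-1 and Kit that holds blood stem cells. KO mice were Nfat5 fl/fl Vav-Cre and WT mice Nfat5 +/+ Vav-Cre, so all 6 animals carried the Cre, which is active throughout the blood system, so that the deletion touches all blood cells and not stem cells alone. Mice 2, 11 and 70 were KO and mice 3, 12 and 64 were WT. The labels state neither age nor strain background. Values are log2 intensities, so that a difference of 1 is a doubling of signal. In bulk arrays of this kind, fewer cells with a transcript and less of it per cell cannot be told apart.

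Immediate early genes are switched on within minutes of a stimulus, without new protein being made first, by MAP kinase and calcium or cAMP signals that reach serum response factor, the ternary complex factors and CREB at their promoters. FOS and JUN proteins then pair as AP-1, and EGR1, KLF6 and NR4A1 act at sites of their own, so that the set turns a short signal into a wave of transcription. In mouse marrow Egr1 is known for holding stem cells quiescent and in place, and Junb for limiting their expansion. The same genes are also known to be induced while tissue is taken apart and cells are sorted.

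The promoters of 8 of the 10 genes were matched in RefSeq (build GRCm38.p6). Egr1 and Ier2 were not matched. The 250 bases before the start of Fosb (chr7:19310046-19310295, minus strand), Jun (chr4:95052223-95052472, minus strand) and Klf6 (chr13:5861239-5861488, plus strand) are shown because the same 2 mice were lowest for these genes in both populations, as described further on. Nr4a1 (chr15:101266596-101266845, plus strand) did not, and is shown for contrast. Each runs 5′ to 3′ along the gene, and capitals mark TGACG or its reverse complement CGTCA, the core of the CREB site, and TGACATCA, a variant AP-1 and ATF site that was picked after the sequences were seen.
Fosb: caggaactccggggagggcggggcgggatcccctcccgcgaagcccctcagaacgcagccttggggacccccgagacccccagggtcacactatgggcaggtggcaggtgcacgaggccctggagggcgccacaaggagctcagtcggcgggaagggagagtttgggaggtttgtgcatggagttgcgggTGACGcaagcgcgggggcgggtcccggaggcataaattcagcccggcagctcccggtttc
Jun: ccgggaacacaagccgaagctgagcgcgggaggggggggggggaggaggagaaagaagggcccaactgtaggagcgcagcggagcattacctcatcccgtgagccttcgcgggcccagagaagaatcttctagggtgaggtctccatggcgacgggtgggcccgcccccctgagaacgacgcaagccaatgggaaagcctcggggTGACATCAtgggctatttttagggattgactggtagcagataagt
Klf6: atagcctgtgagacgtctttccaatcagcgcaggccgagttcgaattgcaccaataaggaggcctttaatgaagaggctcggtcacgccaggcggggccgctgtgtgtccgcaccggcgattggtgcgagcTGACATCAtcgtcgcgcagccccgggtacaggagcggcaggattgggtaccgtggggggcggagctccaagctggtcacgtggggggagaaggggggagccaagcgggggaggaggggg
Nr4a1: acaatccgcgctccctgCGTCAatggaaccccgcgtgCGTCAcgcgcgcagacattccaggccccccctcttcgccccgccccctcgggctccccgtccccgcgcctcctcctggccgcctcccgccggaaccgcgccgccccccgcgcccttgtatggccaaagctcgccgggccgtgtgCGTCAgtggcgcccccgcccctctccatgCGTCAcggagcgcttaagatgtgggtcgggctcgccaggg
TGACG on either strand was found in 5 of 8 windows, against 17.8% of all 32851 promoter windows of the same length. Nr4a1 held 4 copies, at 233, 213, 69 and 40 bases before the start. Fos held 2, at 129 and 66 bases, and Fosb, Junb and Atf3 held 1 each, at 60, 106 and 7 bases. These positions count from the start of the matched promoter entry. For Nr4a1 that start lies inside the gene's span, which begins at base 101253902. The Fosb window overlaps the span of its gene, which ends at base 19310118. At least 2 copies of TGACG were found in 3.90% of all windows. TGACATCA on either strand was found in Jun, 45 bases before the start, and in Klf6, 119 bases before it, and in 2.93% of all windows. The AP-1 site TGANTCA was found in 0 of 8 windows, against 6.75% of all, and the CArG box, the site of serum response factor, in 0 of 8, against 1.47% of all. Bases more than 250 before the start, and the promoters of Egr1 and Ier2, were not searched, so sites there would be missed. The motif found in Fosb was not found in Jun or Klf6, which shared TGACATCA.

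Nfat5, the gene of an osmotic stress factor, had all KO arrays below all WT arrays of its population. It averaged 7.69 ± 0.31 in KO HSC against 8.60 ± 0.36 in WT HSC, and 7.16 ± 0.25 in KO MPP against 8.03 ± 0.24 in WT MPP (SD, n = 3 arrays each). The two-sided exact permutation p was 0.1 in each population, the smallest that 3 against 3 allows. All 6 tested MPP markers were lower in HSC over both genotypes by limma (adjusted p under 0.05), and 4 of 9 tested HSC markers were higher. Slamf1 and Cd48 are the genes of the sort markers CD150 and CD48. Among markers of other cells, 4 of 6 tested for B cells and 3 of 7 for monocytes and macrophages were lower in HSC, 2 of 5 for megakaryocytes were higher, and 0 of 9 for neutrophils and 0 of 4 for erythroid cells passed. With the mouse as a block the counts were 3 for B cells, 1 for monocytes and macrophages and 2 for megakaryocytes. Of 5 tested T and NK cell markers 1 was lower in HSC, Nkg7 (difference -2.18), and the median of the 5 was -0.06. Of 4 tested endothelial and stromal markers 1 was lower without the block, Pecam1 (-1.20), while 3 had positive differences and the median was 0.09. Nkg7 and Pecam1 were lower with and without the block (adjusted p = 0.00222 and 0.0382 with it by limma). The endothelial marker Emcn was higher with the block alone (0.57, adjusted p = 0.0451 by limma). Emcn was higher in HSC of 3 of 6 mice, with a difference of 1.28 in KO and of -0.13 in WT. The HSC array of KO mouse 2 deviated most from its group, with an SD of 0.438 over genes against 0.276 to 0.378 on the other arrays.

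Stem cells were compared with progenitors to see how the immediate early genes are set in each population. Egr1 had the largest difference of the 10 genes. It read 8.91, 9.36 and 7.79 in HSC of KO mice 2, 11 and 70, against 7.81, 8.16 and 6.43 in MPP of the same mice. It read 9.24, 9.55 and 8.45 in HSC of WT mice 3, 12 and 64, against 7.57, 7.76 and 6.45 in their MPP. HSC were thus higher than MPP within every mouse, while the KO groups overlapped, since HSC of mouse 70 lay below MPP of mouse 11. WT groups did not overlap.

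**Figure D1:**
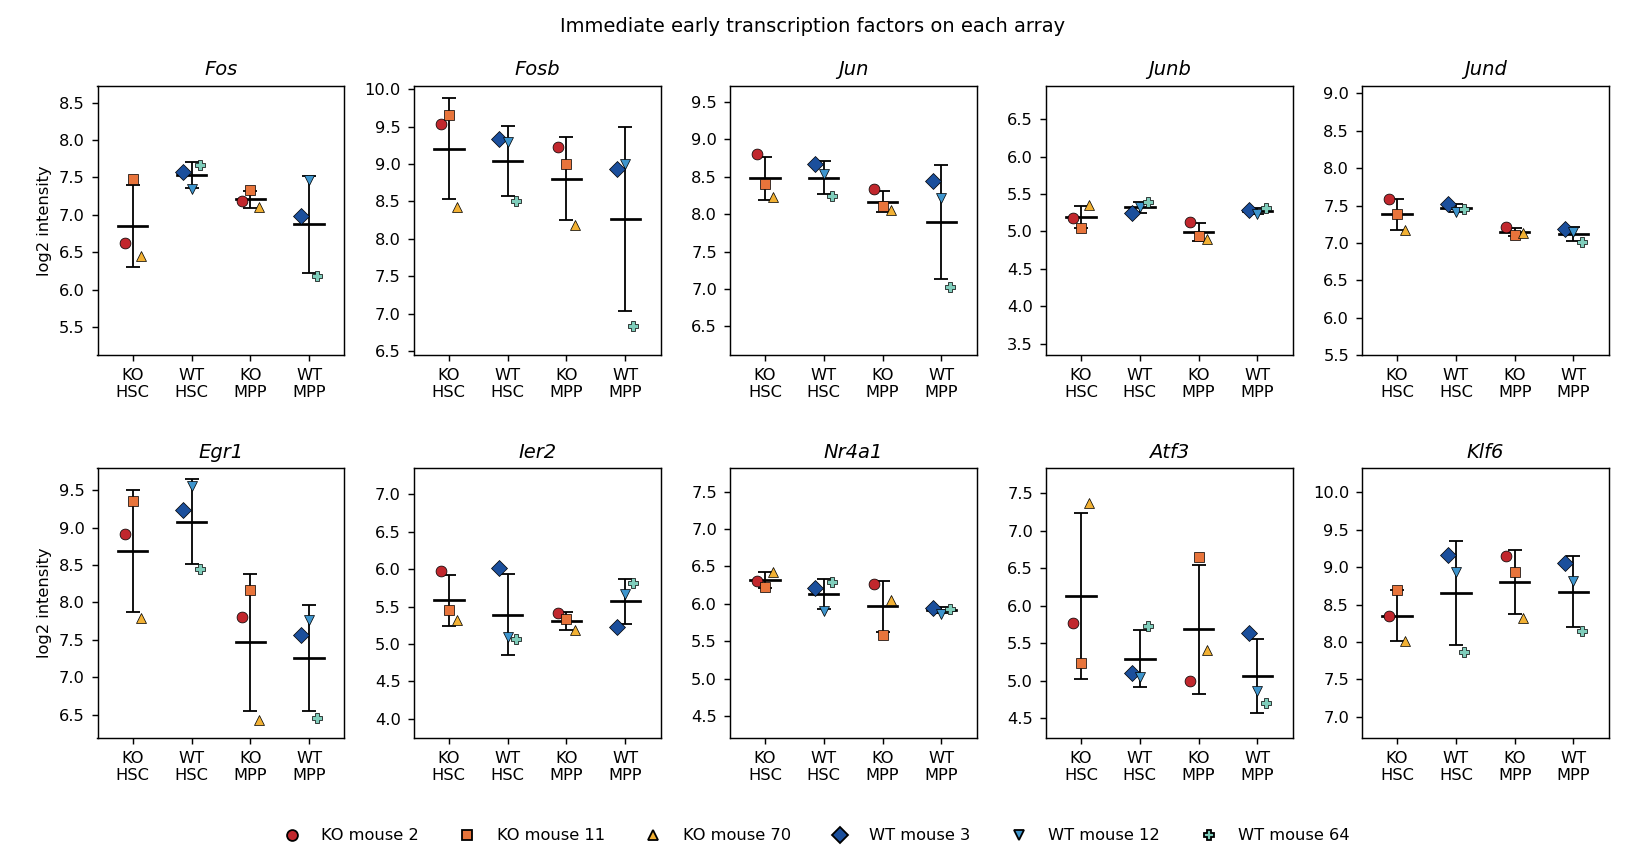
Log2 intensity (y axis) of each gene on each array, by group (x axis); points are mice, the long bar is the group mean and the error bars are 1 SD (n = 3 mice). Egr1 is higher in HSC than in MPP of the same mouse throughout, and mice 70 and 64 are low for Fosb, Jun, Egr1 and Klf6 in both populations.

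The within-mouse difference of Egr1, HSC minus MPP, was 1.10 to 1.99 over the 6 mice. It averaged 1.22 ± 0.13 in KO mice and 1.82 ± 0.16 in WT mice (SD, n = 3). Over both genotypes the log2 difference was 1.52, a 2.86-fold higher signal in HSC. Without regard to the mouse the limma test just missed the threshold (SE 0.39, 95% CI 0.67 to 2.37, adjusted p = 0.0506). With the mouse as a block, which compares the arrays of the same animal, Egr1 passed (SE 0.10, 95% CI 1.27 to 1.76, adjusted p = 0.00202 by limma).

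The SD of Egr1 among mice of one group ran from 0.57 to 0.92 and was larger than that of the within-mouse differences, so that the block narrowed the interval. Without each mouse in turn, a check added after seeing the data, the blocked difference was 1.47 to 1.55 and passed each time (adjusted p = 0.00832 to 0.0164 by limma). In KO alone the difference was 1.22 (adjusted p = 0.401 by limma, and 0.0283 with the block, 95% CI 0.87 to 1.57). In WT alone it was 1.82 (adjusted p = 0.148 by limma, and 0.00758 with the block, 95% CI 1.47 to 2.17). With 1 mouse left out, the blocked adjusted p was 0.0582 to 0.123 in KO and 0.0169 to 0.0846 in WT by limma, so the KO call was lost without any 1 mouse and the WT call without any 1 WT mouse. The interaction takes the HSC minus MPP difference of WT mice from that of KO mice. It was -0.60 and did not pass with or without the block (adjusted p = 0.99962, and 0.969 with the block by limma). Its 95% CI, not adjusted for the number of genes tested, was -2.31 to 1.10 without the block and -1.09 to -0.11 with it.

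The AP-1 genes Fosb and Jun were also higher in HSC within all 6 mice. Fosb, a partner of JUN proteins, read 9.54, 9.65 and 8.43 in HSC against 9.23, 9.0 and 8.18 in MPP of KO mice 2, 11 and 70. In WT mice 3, 12 and 64 it read 9.34, 9.29 and 8.5 in HSC against 8.94, 9.0 and 6.84 in MPP. Fosb differed by 0.26 to 1.67 within mice, and MPP of WT mouse 64 was far below the other MPP arrays.

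Jun, the founding AP-1 subunit, read 8.80, 8.40 and 8.23 in HSC against 8.33, 8.11 and 8.06 in MPP of KO mice. In WT mice it read 8.67, 8.54 and 8.24 in HSC against 8.44, 8.22 and 7.03 in MPP. Again MPP of mouse 64 was the lowest array. Over both genotypes Fosb differed by 0.60 and Jun by 0.45, and neither passed with the block (adjusted p = 0.181 and 0.191 by limma). Without mouse 64 the WT difference was 0.34 for Fosb, against 0.78 with it, and 0.28 for Jun, against 0.58.

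Jund, the AP-1 subunit least dependent on stimulation, and Nr4a1, which encodes the nuclear receptor Nur77, had smaller differences of the same direction in every mouse. Jund read 7.59, 7.39 and 7.17 in HSC against 7.21, 7.11 and 7.13 in MPP of KO mice, and 7.52, 7.42 and 7.46 in HSC against 7.19, 7.15 and 7.01 in MPP of WT mice. The WT groups did not overlap for Jund, and the KO groups overlapped through mouse 70. Nr4a1 read 6.30, 6.22 and 6.43 in HSC against 6.26, 5.59 and 6.05 in MPP of KO mice, and 6.21, 5.9 and 6.29 in HSC against 5.95, 5.87 and 5.93 in MPP of WT mice. Its groups overlapped in both genotypes. Over both genotypes Jund differed by 0.29 and Nr4a1 by 0.28, without passing with the block (adjusted p = 0.193 and 0.263 by limma).

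**Figure D2:**
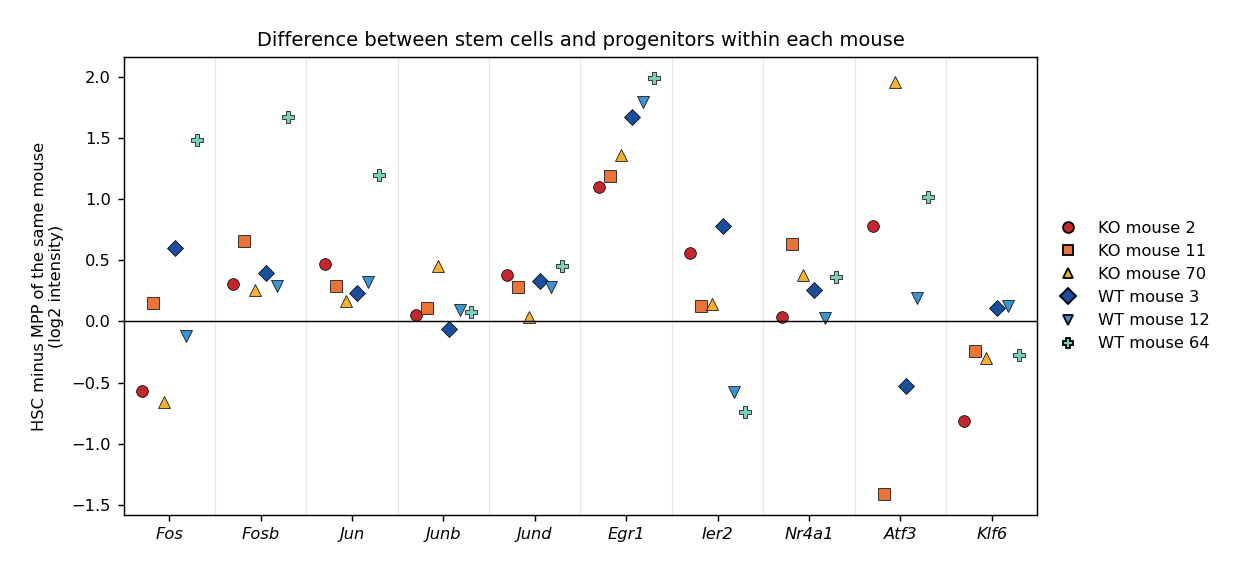
Difference in log2 intensity between HSC and MPP of the same mouse (y axis) for each gene (x axis); each point is 1 mouse. Egr1 lies between 1.10 and 1.99 in all 6 mice, Fosb, Jun, Jund and Nr4a1 are above 0 in all 6, and the other genes lie on both sides of 0.

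In the plot of within-mouse differences Egr1 lies farthest from 0. The lowest difference was 0.03 for Nr4a1 and 0.04 for Jund, close to the -0.06 of Junb, which was above 0 in 5 of 6 mice. HSC were higher in all 6 mice for 5 of 10 genes, against 7.73% of the 14620 genes tested, and lower in all 6 for 0 of 10, against 6.19%. All 6 HSC arrays lay above all 6 MPP arrays for 0 of 10, against 1.85%. Neutrophil markers moved with this pattern in part. Their mean over the 9 tested of 10 markers was 5.81 to 7.97 on HSC arrays and 5.0 to 7.10 on MPP arrays, with S100a9 averaging 9.23 in KO and 10.22 in WT HSC. The marker mean was higher in HSC of mice 3, 11, 12 and 64, by 0.85 to 1.28, and lower in HSC of mice 2 and 70, with differences of -0.53 and -0.23. With the neutrophil mean as a covariate, a fit added after seeing the data, Egr1 differed by 1.15 over both genotypes (adjusted p = 0.0319 by limma). In that fit it differed by 1.10 in KO, against 1.22 without the covariate, and by 1.19 in WT, against 1.82 (adjusted p = 0.183 and 0.17 by limma). Fosb then differed by 0.20 over both genotypes, against 0.60, and Jun by 0.28, against 0.45. With the block and the covariate together Egr1 differed by 1.51 (adjusted p = 0.0378 by limma), with differences of 1.21 in KO and 1.8 in WT that did not pass (adjusted p = 0.0604 and 0.15), against 1.22 and 1.82 with the block alone.

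The other 5 genes had no common direction between the populations. Fos, the other main AP-1 subunit, had within-mouse differences of -0.57 and -0.66 in KO mice 2 and 70 and of 1.48 in WT mouse 64. Atf3, a stress-induced bZIP factor, ranged from -1.41 in mouse 11 to 1.96 in mouse 70. Ier2, a short nuclear regulator, ranged from -0.74 to 0.78, and Junb from -0.06 to 0.45. Klf6, a Krüppel-like factor, was lower in HSC of all 3 KO mice, with differences of -0.81, -0.24 and -0.30, and had differences of -0.27 to 0.13 in WT mice. Over both genotypes its difference was -0.23 (adjusted p = 0.364 with the block by limma).

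By limma, 0 of 10 genes passed over both genotypes without the block, against 4.85% of all genes tested, and 1 of 10, Egr1, passed with it, against 3.73% of all and 1.48% higher in HSC. In KO the counts were 0 without the block, against 1.26% of all, and 1 with it, against 0.773%, of which 0.321% were higher in HSC. In WT they were 0 without the block, against 2.07%, and 1 with it, against 1.23%, of which 0.506% were higher. The median log2 difference of the 10 genes was 0.29 over both genotypes, in KO and in WT, against 0.05, 0.05 and 0.03 over all genes tested. WT groups did not overlap for 2 of 10 genes, Jund and Egr1, against 21.3% of all, and KO groups overlapped for each of the 10, where 17.1% of all genes had no overlap.

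Loss of NFAT5 was compared within each population. In HSC 0 of 10 genes passed, as did 0% of all genes tested, with 919 of 14620 genes at an unadjusted p under 0.05 by limma. Differences ran from -0.68 for Fos to 0.84 for Atf3, with a median of -0.05 against 0.02 over all genes. Fos read 6.62, 7.48 and 6.45 in KO HSC, against 7.58, 7.34 and 7.67 in WT HSC. KO mice 2 and 70 were below all WT mice, and KO mouse 11 was above 1 WT mouse, so the groups overlapped. The difference of -0.68 had a 95% CI of -1.40 to 0.04 (adjusted p = 0.806 by limma).

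Neutrophil markers are given beside Fos. Their mean was 6.36, 7.97 and 5.81 in HSC of KO mice 2, 11 and 70, against 7.95, 7.79 and 6.05 in HSC of WT mice 3, 12 and 64. With the neutrophil mean as a covariate Fos differed by -0.51, and the part of these cells in the result was not tested further. Atf3 read 5.77, 5.24 and 7.37 in KO HSC, against 5.10, 5.05 and 5.73 in WT HSC. The KO value rested on mouse 70, without which the difference was 0.21 and not 0.84 (95% CI -0.38 to 2.06, adjusted p = 0.896 by limma).

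Egr1 averaged 8.68 ± 0.81 in KO HSC against 9.08 ± 0.57 in WT HSC (SD, n = 3 arrays each), a difference of -0.39 with a 95% CI of -1.60 to 0.81. The lower end of that interval lies farther from 0 than the 1.52 between HSC and MPP over both genotypes, but not than the 1.82 in WT mice. Klf6 averaged 8.35 ± 0.34 in KO HSC against 8.66 ± 0.69 in WT HSC. Jun was all but level, at 8.47 ± 0.29 in KO and 8.48 ± 0.22 in WT HSC, with a difference of -0.01 (95% CI -0.72 to 0.70). The narrowest intervals belonged to Junb, at -0.13 (95% CI -0.42 to 0.17), and Jund, at -0.09 (95% CI -0.40 to 0.21).

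In MPP the KO against WT comparison likewise had 0 of 10 genes past the threshold, against 0% of all, with 466 genes at an unadjusted p under 0.05 by limma. Of the 10 genes 8 had a positive difference, with a median of 0.17 against 0.00 over all genes. That median was -0.14 without WT mouse 64, whose MPP array was low for several of the genes. Fosb averaged 8.80 ± 0.55 in KO MPP against 8.26 ± 1.20 in WT MPP (SD, n = 3 arrays each), a difference of 0.54, and of -0.17 without mouse 64. Jun differed by 0.27, and by -0.17 without that mouse, and Egr1 by 0.21, and by -0.19 without it. The positive direction of these 3 genes in KO MPP therefore rested on 1 control animal.

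Junb and Ier2 had negative differences in MPP, of -0.29 and -0.26. Junb read 5.13, 4.94 and 4.90 in KO MPP, against 5.29, 5.23 and 5.31 in WT MPP. All KO arrays were below all WT arrays, which held for 1 of 10 genes, near the 9.49% of all genes whose groups did not overlap in MPP, and for 0 of 10 in HSC, against 8.87%. The Junb difference did not pass (95% CI -0.58 to 0.01, adjusted p = 0.99991 by limma), and 2 of the KO values were under 4.96, the mean value below which genes were left out. Junb is thus read here near the lower end of the arrays' range. Atf3 read 4.86 and 4.70 in MPP of WT mice 12 and 64, also under 4.96. Atf3 and Ier2 averaged 5.54 and 5.46 over the 12 arrays, below the array medians over genes of 5.85 to 5.95.

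**Figure D3:**
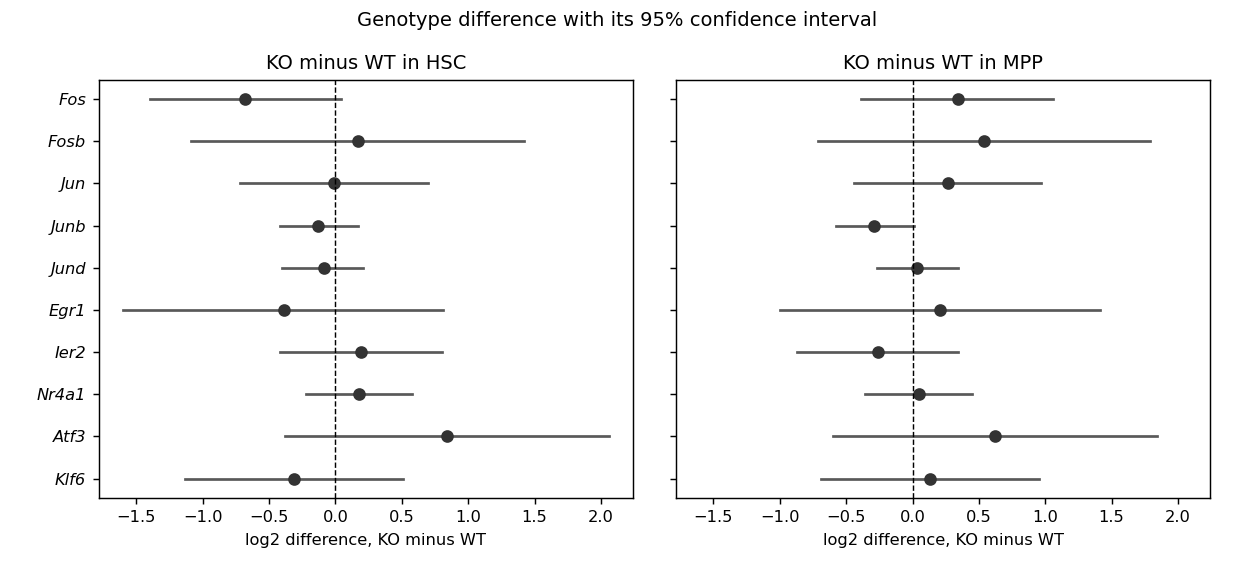
Log2 difference between KO and WT (x axis) for each gene (y axis) in HSC (left) and MPP (right); points are limma estimates from 3 KO and 3 WT arrays and bars are 95% confidence intervals. Each interval crosses 0 in both populations, and Fos has opposite signs in HSC and MPP.

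The intervals in the plot of genotype differences bound what could be seen with 3 mice a group. Averaged over both populations of each mouse, the 10 genes had a median difference of -0.03 between KO and WT mice, against 0.01 over all genes. Again 0 of 10 passed, against 0% of all, with 650 genes at an unadjusted p under 0.05 by limma. Atf3 had the largest difference, 0.73 (SE 0.26, 95% CI 0.11 to 1.35, adjusted p = 0.99993 by limma). The highest Atf3 arrays were HSC of KO mouse 70, at 7.37, and MPP of KO mouse 11, at 6.65. The other arrays of these mice read 5.41 in MPP of mouse 70 and 5.24 in HSC of mouse 11. With 1 array for each population of a mouse, a rise in 1 population and an array effect cannot be told apart. Without any 1 mouse the Atf3 difference was 0.49 to 0.99.

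The interaction asked whether the KO against WT difference differed between HSC and MPP. It had 0 of 10 genes past the threshold, against 0% of all, with 658 genes at an unadjusted p under 0.05 by limma. Its largest value was that of Fos, at -1.01 (SE 0.46, 95% CI -2.03 to 0.01, adjusted p = 0.99962). Fos read 7.19, 7.33 and 7.11 in KO MPP, against 6.99, 7.46 and 6.18 in WT MPP. The Fos value was -0.60 without mouse 64.

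Some of these genes spread widely among the arrays of a group, where differences between mice and between arrays cannot be told apart. The within-group SD was 0.79 for Fosb, 0.77 for Atf3 and 0.76 for Egr1, against a median of 0.29 over all genes tested, above 94.1%, 93.5% and 93.3% of them. At the other end, Junb had an SD of 0.11 and Jund of 0.12. Of the 10 genes, 7 lay above the median SD.

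The mice that were low were the same for 4 of the genes. For Fosb, Jun, Egr1 and Klf6, KO mouse 70 and WT mouse 64 were the 2 lowest of the 6 in HSC and again in MPP. Klf6 read 8.35, 8.70 and 8.01 in HSC of KO mice 2, 11 and 70 and 9.17, 8.94 and 7.87 in HSC of WT mice 3, 12 and 64. In MPP it read 9.15, 8.94 and 8.32 in KO mice and 9.06, 8.81 and 8.15 in WT mice. This pair, looked for after the values were seen, was shown by 4 of 10 genes, against 0.451% of all genes tested, and some shared pair of lowest mice by 8.15% of all. Mice 64 and 70 differ in genotype, and the labels name no batch that they share.

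The mean of 42 other immediate early genes had the same low mice. It was 6.29 on the HSC arrays of KO mouse 70 and of WT mouse 64, against 6.40 to 6.51 on the other HSC arrays. In MPP it was 6.14 in KO mouse 70 and 6.17 in WT mouse 64, against 6.24 to 6.34 on the other MPP arrays. For Fos, Ier2, Nr4a1, Atf3, Junb and Jund these were not the 2 lowest mice in both populations, and Nr4a1 was highest in HSC of mouse 70.

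**Figure D4:**
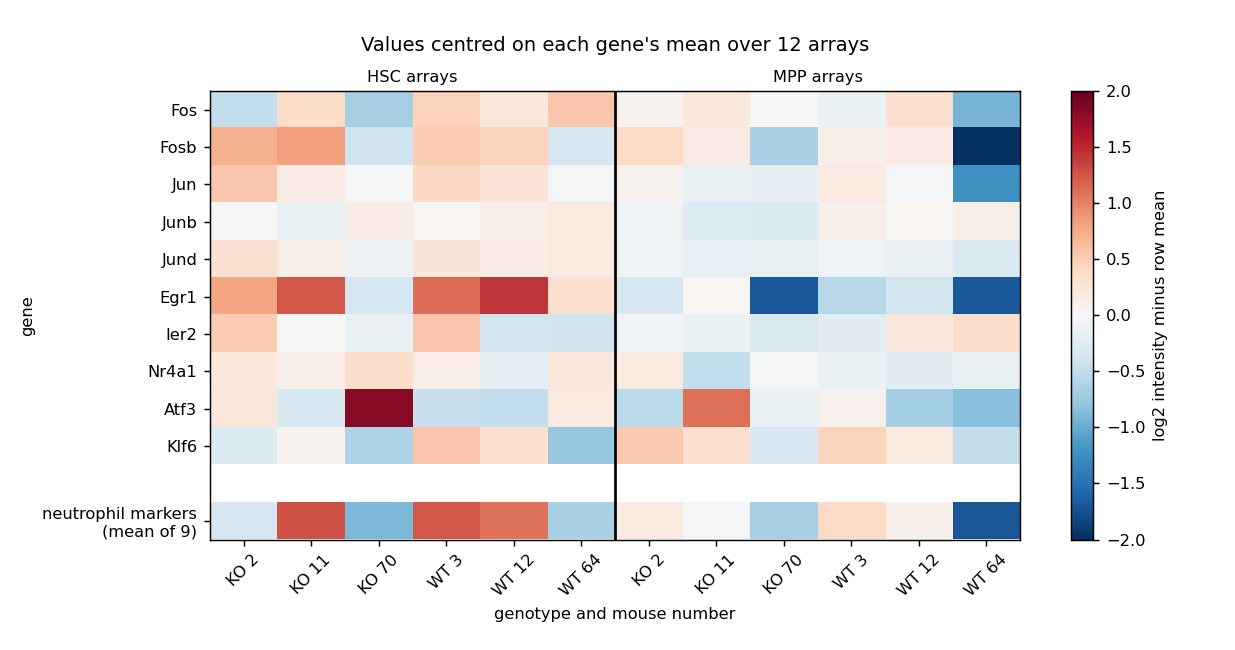
Log2 intensity minus the gene's mean over the 12 arrays (colour) for each gene (rows) and array (columns, genotype and mouse number, HSC left and MPP right), with the mean of 9 neutrophil markers in the bottom row. Egr1 is red in most HSC arrays, and the columns of mice 70 and 64 are pale or blue for Fosb, Jun, Egr1, Klf6 and the neutrophil markers.

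The mean of the neutrophil markers was low in the same mice, as the bottom row of the map of centred values shows. Their mean was 5.81 in HSC and 6.04 in MPP of KO mouse 70, and 6.05 in HSC and 5.0 in MPP of WT mouse 64, against 6.36 to 7.97 on the other 8 arrays. S100a8 ranged from 4.77 to 10.66 over the arrays. Single markers followed in part: mice 70 and 64 were the 2 lowest for 4 of the 9 in HSC, for 5 in MPP and for 2, S100a8 and Lcn2, in both, while Mmp9 and Retnlg had this pair in neither. With each group's mean taken off, the neutrophil mean correlated over the 12 arrays with Klf6 at r = 0.92, Fosb at 0.87, Egr1 at 0.84, Fos and Jun at 0.69 and Jund at 0.41. The other genes gave 0.06 for Ier2, -0.30 for Nr4a1, -0.34 for Atf3 and -0.50 for Junb. The 12 points come from 6 mice and so are not independent, and whether neutrophil RNA accounts for the spread of Fosb, Jun, Egr1 and Klf6 was not tested. The LSK gate is meant to leave out mature blood cells, neutrophils among them.

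Correlations among the same 4 genes are given for description only. These genes were singled out because the same mice were lowest for each of them in both populations. In every group the lowest array was therefore the same for all 4, which by itself favours positive correlations among them. Whether they move together beyond that choice was not tested. With group means taken off, Fosb correlated with Jun at r = 0.90, with Egr1 at 0.88 and with Klf6 at 0.84 over the 12 arrays, and Egr1 with Klf6 at 0.84. Jun correlated with Klf6 at 0.69 and with Egr1 at 0.62, below Fos with Fosb at 0.72. With group means left in, Egr1 with Klf6 gave 0.33 and Jun with Klf6 0.41. Against the mean of the other 9 genes, r was 0.92 for Fosb, 0.83 for Jun, 0.77 for Klf6 and 0.75 for Egr1. It was 0.55 for Jund and 0.54 for Fos, 0.01 for Ier2, and -0.27, -0.29 and -0.31 for Junb, Atf3 and Nr4a1. Fosb thus had the closest ties to the others, and Ier2, Junb, Atf3 and Nr4a1 the weakest or negative ones.

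Outside the set, the genes whose pattern over the 12 arrays was most like the mean of the 10 were Olfr139 (r = 0.90), H1f2 and S100a9 (0.88 each), Mb21d2 (0.86) and Thrb (0.85). With group means taken off they were Car2 (0.95), Anks6, S100a8 and S100a9 (0.90 each) and Thrb (0.87). S100a8 and S100a9, the subunits of neutrophil calprotectin, thus appeared beside the immediate early genes in the second list and S100a9 in both. Car2, a carbonic anhydrase, read 10.47 and 10.70 in HSC of KO mouse 70 and WT mouse 64, the lowest values of their groups.

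Other genes of the pathway were followed as lists. Of the 42 tested of 44 other immediate early genes, 3 were higher and 0 lower in HSC than in MPP over both genotypes by limma, where 4.85% of all genes tested passed and 1.93% were higher. These were the Krüppel-like factor gene Klf9 at 1.25 (adjusted p = 0.0261), the stress phosphatase subunit gene Ppp1r15a at 0.77 (adjusted p = 0.0382) and the small MAF factor gene Maff at 1.68 (adjusted p = 0.0485). All 3 were higher in HSC of 6 of 6 mice and lost the call with the block (adjusted p = 0.0672, 0.076 and 0.0573 by limma). With the block 1 other gene passed, the antiproliferative Btg2, lower in HSC (difference -1.30, adjusted p = 0.0225). The list had a median of 0.10, against 0.05 over all genes.

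Myc, the growth regulator that is also an immediate early gene, went the other way from Egr1 in WT mice. It averaged 8.33 ± 0.34 in KO HSC against 7.05 ± 0.60 in WT HSC, and 8.34 ± 0.32 in KO MPP against 8.54 ± 0.39 in WT MPP (SD, n = 3 arrays each). HSC were lower than MPP in WT mice (difference -1.48, adjusted p = 0.0435 by limma, and 0.0486 with the block). Between KO and WT HSC the Myc groups did not overlap, with 8.64, 8.37 and 7.97 in KO against 7.28, 7.52 and 6.37 in WT. The same held for 8.87% of all genes tested, and Myc was named from its list of 42 by its low p. Its difference of 1.27 did not pass (SE 0.32, adjusted p = 0.551 by limma). For KO against WT, 0 of the 42 genes passed in HSC and 0 in MPP.

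Lists of genes that bind with or act before the immediate early factors held 0 to 2 called genes each over both genotypes, to be read against 4.85% of all genes tested and 3.73% with the block. Of the 13 tested of 14 MAP kinase phosphatase and Sprouty feedback genes, Dusp6, which switches off ERK, was lower in HSC (difference -1.26, adjusted p = 0.0197 by limma, and 0.0382 with the block) and Dusp4 higher, at 0.47 (adjusted p = 0.045, and 0.0965 with the block). Dusp6 was lower in HSC of all 6 mice and Egr1 higher, and a link between them was not tested. Among 16 tested AP-1 bZIP partners 1 passed over both genotypes, Maff, and 0 with the block. Among 15 tested SRF, TCF and CREB regulators 1 passed, the ternary complex factor gene Elk3 at -0.74 (adjusted p = 0.0493, and 0.0841 with the block). Among 9 tested co-repressors and KLF relatives 0 passed, and with the block 1 did, Klf12 at 1.77 (adjusted p = 0.0486 by limma). Of 18 tested genes of the MAP kinase cascade 0 passed, and of 12 tested heat shock genes known to rise in dissociated cells 0 passed, with medians of -0.16 and -0.12. In these 6 lists 0 genes passed for KO against WT in either population.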

How the data were processed

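The deposited file holds log2 intensities, 1 value for each probe set and array, which the authors had normalized with RMA according to the submitters' processing notes. These notes name limma too, without versions. Per the labels' protocols, picogram amounts of total RNA were amplified and labelled with biotin by NuGEN kits, which makes weak transcripts noisy. RMA gives the probe values of all arrays 1 distribution before they are combined into probe sets, so a shift of the whole transcriptome would be largely hidden. The combined values had array medians over probe sets of 5.81 to 5.91. No scanner file or detection call was used, and precision is limited by how many arrays there are.

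Of 22142 probe sets, 19527 had 1 gene symbol, 0 several and 2615 none. They gave 19494 genes, each with the probe set of the highest mean. The 4874 genes with the lowest 25% of means (below 4.96) were left out and 14620 were tested. Means of the 4 groups were fitted in limma over the 12 arrays (R 4.3.3, limma 3.58.1, statmod 1.5.0). Tests were two-sided, p-values were adjusted by Benjamini-Hochberg over all genes tested, and the threshold was an adjusted p of 0.05. To compare KO with WT over both populations, each mouse's 2 arrays were averaged first. Replicates are separate animals. The fit was tested on simulated data.

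HSC and MPP arrays pair by animal, from the mouse in the labels. Across genes, deviations from group means correlated within a mouse at r = 0.032 to 0.091, and 2 of 6 HSC arrays correlated best with MPP of their own mouse. A fit with the mouse as a block (fixed within mice, random between genotypes, consensus correlation 0.0723) was an alternative. So were other filters, priors and array weights, the mean of probe sets, a second quantile normalization, fits of the compared arrays alone, and fits without a mouse or 1 array. The 10 genes, the gene lists and the rule for naming list genes (up to 4 with the lowest p) were chosen with earlier results of these data known. Btg2 was named after its value was seen.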

Additional observations from a re-analysis of the deposited data

How the results depend on the processing

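With the mouse as a replicate block, 113 genes passed for HSC against MPP in KO, against 184 without it, 180 in WT, against 302, and 546 over both genotypes, against 709. The block added 1 of the 10 genes, Egr1, in each of these, and changed no other call of the 10. Over both genotypes 1 of the 10, Egr1, also passed with the lowest 50% of genes left out (adjusted p = 0.0445 by limma), a second quantile normalization (0.0319), a trended prior (0.0469) and the neutrophil mean as a covariate. It did not pass with no filter, the mean of probe sets, a robust prior or array weights (adjusted p = 0.0505 to 0.0582). With only the arrays compared, 79 genes passed in KO. With the neutrophil covariate 198 passed in WT. With block and covariate together, both fits chosen after seeing the data, 40 passed in KO, 1 in WT and 75 over both genotypes, with 1 of the 10, Egr1, in the last, and few degrees of freedom were left. The median of the tested genes of the set in WT was 0.58 with the lowest 50% left out, where fewer of them were tested.

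Signs near 0 turned under some settings. For HSC against MPP in WT, a second quantile normalization gave -0.04 for Junb and 0.14 for Klf6, and array weights gave 0.07 for Klf6. Block and covariate gave 0.07 for Ier2 and -0.05 for Nr4a1 there. Over both genotypes the second normalization gave -0.01 for Ier2, and Fos stood at -0.03 with the covariate and -0.12 with block and covariate. The covariate gave 0.16 for Jun in KO against WT HSC and 0.18 for Fosb in the interaction, and block and covariate gave -0.92 for Atf3 in the interaction. The causes were not tested.

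Without single mice or arrays, with or without the block, 1 to 168 genes passed in KO, 2 to 347 in WT and 211 to 626 over both genotypes. Of the 10 genes 0 to 1 passed in WT and over both genotypes, where Egr1 passed without the block only without mouse 70 (adjusted p = 0.0356 by limma). For HSC against MPP, Atf3 ranged from -0.32 to 1.37 in KO, -0.17 to 0.60 in WT and -0.05 to 0.80 over both genotypes, Ier2 from -0.66 to 0.10 in WT and -0.19 to 0.19 over both, Klf6 from -0.08 to 0.12 in WT and Fos from -0.06 to 0.34 over both. For KO against WT in HSC, 0 to 1 genes passed (Epn1, an endocytic adaptor gene named after its value was seen, at 2.73 without mouse 11, adjusted p = 0.0325 by limma), and the ranges were -0.73 to 0.06 for Egr1, -0.11 to 0.55 for Fosb, 0.00 to 0.51 for Ier2, -0.17 to 0.11 for Jun and -0.19 to 0.02 for Jund. In MPP the median of the 10 ranged from -0.14 to 0.34, with -0.19 to 0.73 for Egr1, -0.01 to 0.63 for Fos, -0.17 to 0.91 for Fosb, -0.17 to 0.54 for Jun, -0.02 to 0.07 for Jund, -0.14 to 0.37 for Klf6 and -0.10 to 0.24 for Nr4a1. Over both populations the ranges were -0.45 to 0.39 for Egr1, -0.14 to 0.70 for Fosb, -0.16 to 0.06 for Ier2, -0.15 to 0.31 for Jun, -0.10 to 0.03 for Jund and -0.42 to 0.13 for Klf6. In the interaction they were -0.54 to 1.15 for Atf3, -0.63 to 0.07 for Fosb, -0.45 to 0.03 for Jun and -0.01 to 0.29 for Nr4a1. With 3 mice a group and signal over background unknown here, small differences of the weaker genes could not be resolved.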
